A study of Mus musculus with 8 samples.

Results

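The aryl hydrocarbon receptor (AhR) pathway was followed in lung endothelial cells (ECs) of neonatal mice through 5 genes, taken by their symbols from the 54532 genes of the deposited table. They were the receptor gene Ahr, the repressor gene Ahrr and the target genes Cyp1a1, Cyp1b1 and Tiparp. All 5 were found, each as a single row. WT mouse pups lived from the day of birth (day 0) to day 14 either in room air with 21% O2 (normoxia, 4 libraries) or in 80% O2 (hyperoxia, 4 libraries), and their lung ECs were profiled by bulk RNA-seq on day 14. Per the study's methods the mice were C57BL/6J, nursing dams were rotated daily between both conditions, and ECs were the cells that bound CD31-coated beads after CD45-positive leukocytes had been removed. CD31 is a surface protein of ECs, so the isolate was enriched for ECs and could hold RNA of other lung cells. The exposure acted on the whole lung and not on ECs alone.

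AhR is a transcription factor that waits in the cytosol in a complex with HSP90 chaperones. Planar aromatic compounds and tryptophan metabolites bind it. It then enters the nucleus, pairs with ARNT and binds DNA at xenobiotic response elements with the core GCGTG. Its classic targets are the cytochrome P450 genes Cyp1a1 and Cyp1b1, Tiparp, which encodes a mono-ADP-ribosyltransferase that restrains the receptor, and Ahrr, whose product competes for ARNT and also restrains it. In newborn rodents the AhR and CYP1A enzymes have been studied for their part in hyperoxic lung injury, in which prolonged high oxygen disturbs alveolar and vessel growth.

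The promoter windows of the target genes are shown because these genes are classic targets of the receptor. Only their RNA was measured here, not the activity of the receptor. RefSeq entries, each with 250 bases before and 50 bases after a start site in build GRCm38.p6, were found for 4 of the 5 genes. Capitals mark the letters GCGTG, or CACGC where the motif lies on the other strand. The windows run 5′ to 3′ on the strand of the gene and lie at chr9:57697363-57697662 (Cyp1a1, plus strand), chr3:65528197-65528496 (Tiparp, plus strand), chr17:79715012-79715311 (Cyp1b1, minus strand) and chr13:74292282-74292581 (Ahrr, minus strand).
Cyp1a1: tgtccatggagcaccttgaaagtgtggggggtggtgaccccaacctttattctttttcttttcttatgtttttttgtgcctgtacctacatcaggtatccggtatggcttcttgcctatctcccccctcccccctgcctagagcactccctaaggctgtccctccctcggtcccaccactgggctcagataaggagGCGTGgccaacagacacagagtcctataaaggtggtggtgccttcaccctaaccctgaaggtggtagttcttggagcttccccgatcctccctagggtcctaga
Tiparp: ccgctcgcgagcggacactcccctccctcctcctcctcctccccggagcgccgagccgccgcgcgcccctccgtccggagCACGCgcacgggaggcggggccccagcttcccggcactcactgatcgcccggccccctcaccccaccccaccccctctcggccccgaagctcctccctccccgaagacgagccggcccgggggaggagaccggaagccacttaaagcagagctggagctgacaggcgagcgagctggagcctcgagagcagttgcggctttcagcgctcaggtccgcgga
Cyp1b1: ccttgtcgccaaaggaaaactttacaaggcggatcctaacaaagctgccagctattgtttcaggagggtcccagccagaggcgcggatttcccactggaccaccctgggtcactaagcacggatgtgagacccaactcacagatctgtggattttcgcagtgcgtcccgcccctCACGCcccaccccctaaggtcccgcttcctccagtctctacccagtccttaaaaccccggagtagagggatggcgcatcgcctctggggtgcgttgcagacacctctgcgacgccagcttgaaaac
Ahrr: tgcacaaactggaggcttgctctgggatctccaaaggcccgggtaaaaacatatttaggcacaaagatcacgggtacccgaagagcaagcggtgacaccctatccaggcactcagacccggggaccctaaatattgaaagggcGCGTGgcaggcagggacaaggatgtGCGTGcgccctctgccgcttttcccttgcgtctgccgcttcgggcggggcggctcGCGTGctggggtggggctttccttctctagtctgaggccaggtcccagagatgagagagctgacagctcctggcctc

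The Cyp1a1 window surrounds the start of the shorter annotated transcript (GENCODE M21), 9685 bases downstream of the first base of the gene span, which begins with a longer transcript. The other 3 windows lie within 37 bases of the first base of their gene span. All 4 windows held the core motif. Counted from the start site of each window, its first base lay at -54 in Cyp1a1, at -76 in Cyp1b1 and at -170 in Tiparp, and Ahrr held it 3 times, at -107, -82 and -27. Such a short motif is common, and 32.4% of the 32851 promoter windows of the same length held it on either strand. The longer form TNGCGTG was present in the window of Ahrr and in 5.07% of all windows. GCGTG is also a form of the hypoxia response element bound by HIF, so the letters do not name a single factor. Well known response elements of Cyp1a1 lie further upstream, outside this window.

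Total counts ran from 16098086 to 18300730 in normoxia and from 17601052 to 18059845 in hyperoxia. Markers of other cell types also differed between the groups. Levels are given as CPM, counts scaled to the TMM-adjusted library total. The summed level of 8 markers of alveolar type 2 (AT2) cells, the surfactant-making epithelium, was 278 to 415 CPM in normoxia and 849 to 2572 CPM in hyperoxia. Hyperoxia 3 stood apart with the lowest of these hyperoxia values, against at least 2211 CPM in the other 3. Lyz2, 1 of the 8 markers, is also in the macrophage list given below. It was the most abundant gene of that list, with means of 77.3 CPM in normoxia and 225 CPM in hyperoxia. The 10 pan-endothelial markers summed to 15945 to 16868 CPM in normoxia and 15501 to 16332 CPM in hyperoxia, and their groups overlapped. All 10 passed the filter on low counts, of which 3 were higher and 3 were lower in hyperoxia (log2 fold changes from -0.79 to 0.42). By the same rule, an adjusted p under 0.05 in the edgeR test given below, 18.5% of all tested genes were higher and 17.1% were lower. RNA of both sexes was found in 5 of the 8 libraries, so these held more than a single pup. In such bulk samples, fewer cells that express a gene and less RNA per cell cannot be told apart.

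Expression of the receptor and of its targets Tiparp and Cyp1a1 was lower in hyperoxia. Ahr fell by 23.0%, Tiparp fell by 29.1% and Cyp1a1 fell by 72.1% in mean CPM. Cyp1b1 had a lower mean whose groups overlapped, and Ahrr was close to its detection limit in both groups. In edgeR's quasi-likelihood test over 15564 genes, 4 of the 5 genes could be tested and 3 had a Benjamini-Hochberg adjusted p under 0.05, all lower in hyperoxia. By that rule 17.1% of all tested genes were lower and 18.5% were higher. Cyp1a1 could be tested only through its normoxia libraries, where it is higher, so this count does not stand as support. It was also the gene that passed the fold limit of the study, at least 1 on the log2 scale. For the same reason that call does not stand as support, beside 1.36% of tested genes that passed the limit downward. The plot of expression by library shows these values for all 5 genes.

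**Figure D1:**
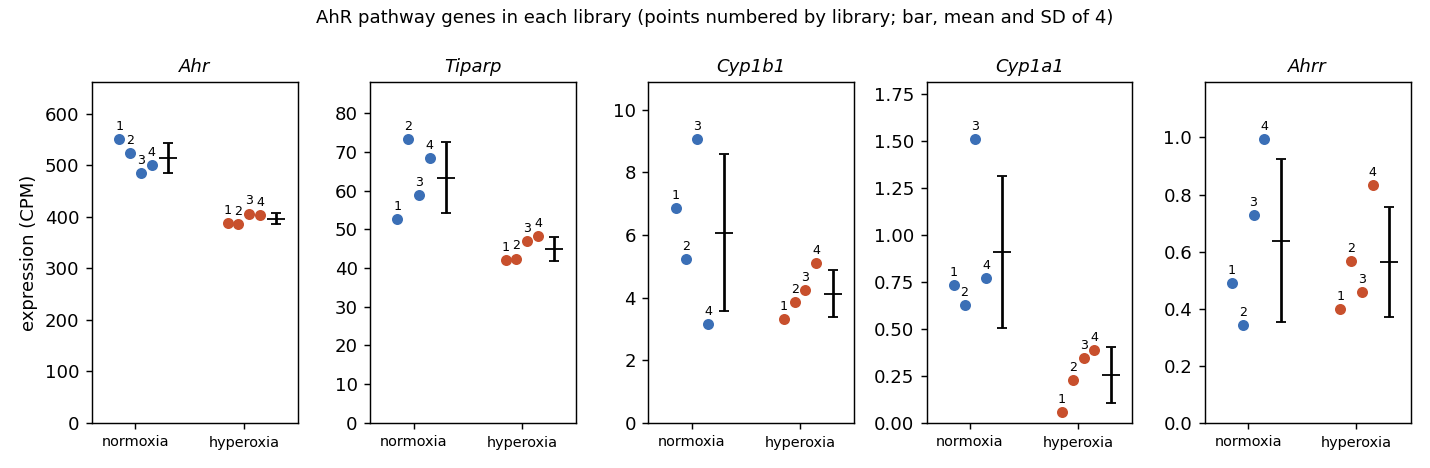
Expression in CPM (linear axes from 0) of the 5 AhR pathway genes in each of the 4 normoxia (blue) and 4 hyperoxia (orange) libraries, numbered as labelled, with the mean and SD of each group in black. All hyperoxia points of Ahr, Tiparp and Cyp1a1 lie below all normoxia points, while the groups overlap for Cyp1b1 and Ahrr.

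Ahr (ENSMUSG00000019256, chromosome 12, 35497974 to 35535038, GRCm38, minus strand) was the most strongly expressed of the 5 genes. Its level was 551, 523, 484 and 499.8 CPM in normoxia 1 to 4 and 388, 386, 406 and 404 CPM in hyperoxia 1 to 4. The groups were clearly apart. The mean went from 514 ± 29.0 to 396 ± 10.4 CPM (SD, n = 4 each). The log2 fold change (log2FC), hyperoxia over normoxia, was -0.38 (SE 0.0497, 95% interval -0.49 to -0.27) with an edgeR adjusted p of 0.000212. The exact two-sided permutation p was 0.0286, the smallest that 4 against 4 libraries can give.

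Tiparp (ENSMUSG00000034640, chromosome 3, 65528410 to 65555518, plus strand) encodes an enzyme induced by AhR that modifies the receptor and lowers its activity. It stood at 52.8, 73.3, 59.0 and 68.4 CPM in normoxia 1 to 4 and at 42.0, 42.5, 47.1 and 48.3 CPM in hyperoxia 1 to 4. Normoxia 1 was the lowest normoxia library and still lay above hyperoxia 4. The mean went from 63.4 ± 9.25 to 45.0 ± 3.17 CPM (SD, n = 4 each), a log2FC of -0.50 (SE 0.0977, 95% interval -0.71 to -0.28, edgeR adjusted p 0.00261). An antisense gene, 4931440P22Rik, overlaps 5.12% of the exon bases of Tiparp and averaged 2.57 CPM, and since no strand setting is given in the sources used here its reads may be shared. For Ahr the overlap, with Gm48236 on the other strand, was 2.06% of exon bases at 0.665 CPM.

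Cyp1a1 (ENSMUSG00000032315, chromosome 9, 57687928 to 57703824, plus strand) encodes a P450 enzyme that oxidizes aromatic compounds and clears natural AhR ligands, and it is commonly used as a readout of AhR activity. It was scarce, with 12, 11, 27 and 14 counts in normoxia 1 to 4 and 1, 4, 6 and 7 counts in hyperoxia 1 to 4. Every hyperoxia library held fewer counts than every normoxia library, and normoxia 3 stood above the rest. The mean went from 0.911 ± 0.404 to 0.254 ± 0.148 CPM (SD, n = 4 each), with a log2FC of -1.81 (SE 0.481, 95% interval -2.88 to -0.75, edgeR adjusted p 0.0133). From the summed counts, 64 in normoxia and 18 in hyperoxia, the ratio was 0.278 with an exact 95% interval of 0.155 to 0.475, which covers counting error only. The gene passed the filter on low counts, about 10 counts in at least 4 libraries, through its normoxia libraries alone.

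For Ahr and Tiparp, and for Cyp1a1, which was tested only through its normoxia libraries, all hyperoxia libraries lay below the normoxia libraries. Among all tested genes 17.6% held this pattern. Cyp1b1 (ENSMUSG00000024087, chromosome 17, 79706953 to 79715041, minus strand), a related P450 that is also made by mesenchymal and mural cells, did not show it. Its level was 6.86, 5.23, 9.06 and 3.15 CPM in normoxia 1 to 4 and 3.31, 3.85, 4.24 and 5.10 CPM in hyperoxia 1 to 4. Normoxia held both the highest of the 8 libraries, normoxia 3, and the lowest, normoxia 4. The mean was 6.08 ± 2.50 CPM in normoxia and 4.13 ± 0.754 CPM in hyperoxia (SD, n = 4 each), and the log2FC of -0.56 (SE 0.281) had a 95% interval of -1.18 to 0.07 and an edgeR adjusted p of 0.151. Without normoxia 4 the adjusted p was 0.0236 and the log2FC -0.77, so this library decided the call, and without normoxia 3 they were 0.41 and -0.30.

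Ahrr (ENSMUSG00000021575, chromosome 13, 74211118 to 74292331, minus strand) was too scarce for the filter. It had 8, 6, 13 and 18 counts in normoxia 1 to 4 and 7, 10, 8 and 15 counts in hyperoxia 1 to 4. The groups overlapped almost fully, with means of 0.638 ± 0.286 and 0.564 ± 0.192 CPM (SD, n = 4 each, exact permutation p 0.714). In a fit without the filter the log2FC was -0.17 with a 95% interval of -1.05 to 0.71, wide enough to hold a change in either direction, and the edgeR adjusted p was 0.831. No change was detectable at this depth.

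Levels of different genes were compared per length, as deposited FPKM. Ahr averaged 82.8 FPKM in normoxia and 63.9 FPKM in hyperoxia, which placed it at rank 501 and 694 of the 15564 tested genes. Tiparp followed at 14.4 and 10.3 FPKM, Cyp1b1 at 1.18 and 0.80 FPKM, Cyp1a1 at 0.324 and 0.0906 FPKM, and Ahrr at 0.0671 and 0.0594 FPKM. In normoxia no neighbours in this order overlapped. In hyperoxia Cyp1a1 (0.0203 to 0.138 FPKM) overlapped Ahrr (0.042 to 0.0875 FPKM), and their order was no longer clear.

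Other genes of the pathway were read from 5 lists with 33 genes, 22 of which were tested. Of these, 9 were higher, 3 were lower and 10 were not past an adjusted p of 0.05, beside 18.5% higher and 17.1% lower among all tested genes. Their median log2FC was 0.18 against -0.0040 over all tested genes. The plot of log2 fold changes by list shows 20 of these 22 genes with their intervals.

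**Figure D2:**
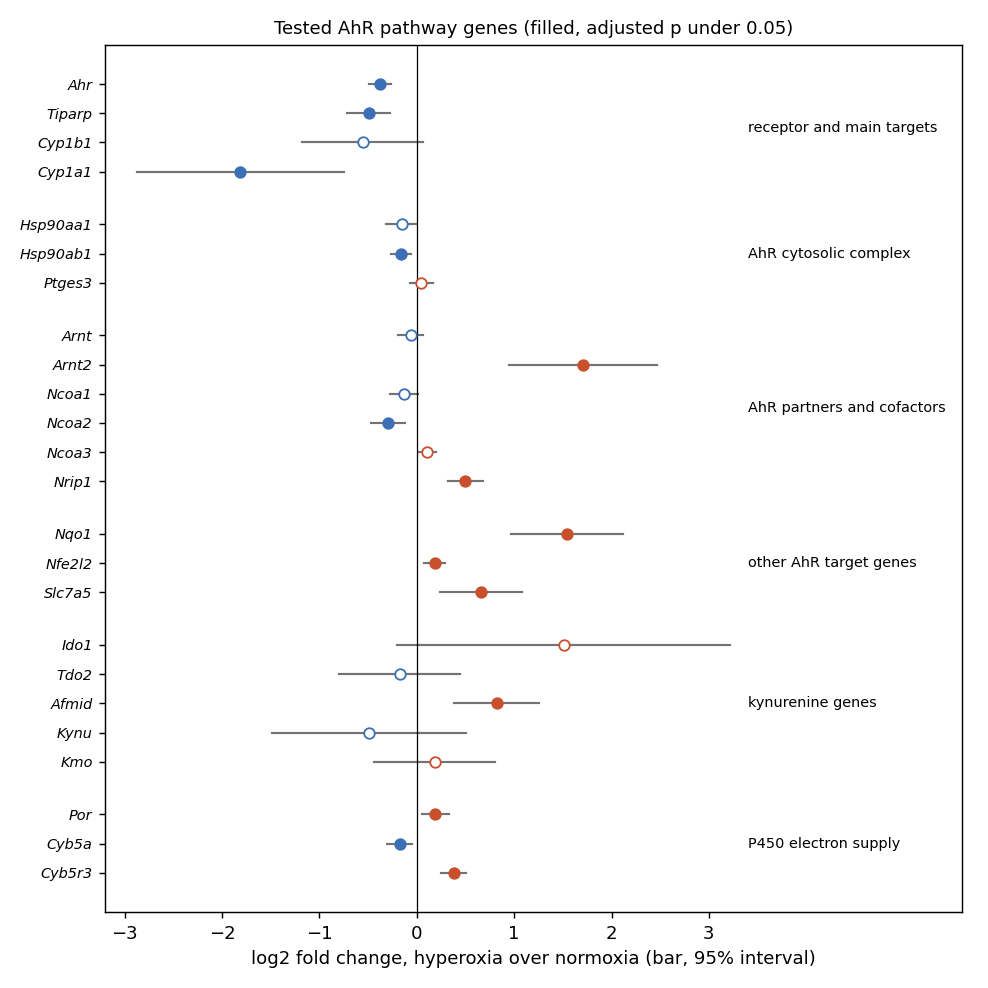
Log2 fold change (hyperoxia over normoxia, x axis) of the 4 tested genes among Ahr, its repressor and main targets and of 20 tested genes of the other lists, with 95% intervals from the edgeR fit. Filled points have an adjusted p under 0.05, with 8 of the 20 higher (orange) and 3 lower (blue), while Ahr, Tiparp and Cyp1a1 are lower.

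For the partner of the receptor no change was detected, and 1 gene of its cytosolic complex was lower. Among all tested genes 17.1% were lower. Arnt, the nuclear partner, stood at 84.6 to 102 CPM in normoxia and 88.0 to 91.0 CPM in hyperoxia (log2FC -0.06, 95% interval -0.19 to 0.07, edgeR adjusted p 0.439). Of the 4 genes of the cytosolic complex only Hsp90ab1, a constitutive HSP90 chaperone, was past the threshold, from 1758 ± 67.2 to 1573 ± 46.0 CPM (log2FC -0.16, SE 0.0453, adjusted p 0.018). That call was lost under 6 of 16 alternatives, among them those without normoxia 1 (adjusted p 0.0518) and without hyperoxia 2 (adjusted p 0.0706). Hsp90aa1, its inducible relative, had a log2FC of -0.16 and an adjusted p of 0.109.

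Among partners and cofactors, 3 of 7 were higher and 1 was lower, beside 18.5% higher and 17.1% lower among all tested genes. Nrip1, a corepressor of nuclear receptors that also binds AhR, rose from 60.0 ± 7.56 to 84.7 ± 3.73 CPM (log2FC 0.50, SE 0.0815, edgeR adjusted p 0.000852). The coactivator Ncoa2 fell from 109.6 ± 13.3 to 89.5 ± 2.85 CPM (log2FC -0.29, SE 0.0783, adjusted p 0.0137), although normoxia 3 at 92.5 CPM lay below hyperoxia 3 at 93.3 CPM. Its relative Ncoa3 was 139 ± 1.14 and 149.8 ± 4.77 CPM with an adjusted p of 0.0545. Arnt2, an ARNT relative best known from neurons, rose from 0.750 ± 0.176 to 2.45 ± 1.06 CPM (log2FC 1.71, SE 0.344, adjusted p 0.00295), at levels far below those of Arnt. SDs are over 4 libraries.

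Of 12 further AhR target genes, 9 were too scarce to be tested. The other 3, Nqo1, Nfe2l2 and Slc7a5, were higher in hyperoxia, as were 18.5% of all tested genes. Nqo1, a quinone reductase controlled by both AhR and NRF2, had 1.35, 0.80, 1.79 and 0.99 CPM in normoxia 1 to 4 and 2.91, 4.13, 4.18 and 3.16 CPM in hyperoxia 1 to 4. The groups were clearly apart, with a log2FC of 1.54 (SE 0.260, edgeR adjusted p 0.00103). Nfe2l2, which encodes NRF2, the main regulator of antioxidant genes, rose from 104 ± 5.71 to 118 ± 2.96 CPM (log2FC 0.18, adjusted p 0.0137). Slc7a5, a transporter of large amino acids such as tryptophan, rose from 5.95 ± 1.60 to 9.41 ± 1.46 CPM (log2FC 0.66, adjusted p 0.0193), and its adjusted p was between 0.051 and 0.0555 without normoxia 1, normoxia 4 or hyperoxia 3.

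The other 9 listed targets had few or no counts. Cyp1a2, the liver-type relative of Cyp1a1, had 1 count in normoxia 3, 1 in hyperoxia 2 and none elsewhere. Ugt1a6b and Gsta1 had 0 counts in all 8 libraries, which allows a level of up to 0.166 to 0.184 CPM per library (3 counts, counting error only). That bound covers only reads that could be assigned to a single gene. The spans of Ugt1a6b and Ugt1a6a overlap on the same strand, and exon overlap was not looked up for these targets. Their low counts need not mean low expression. Cyp2s1, Aldh3a1, Ugt1a6a, Ereg, Serpinb2 and Scin had at most 14 counts in any library and groups that overlapped.

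Genes of tryptophan breakdown, a source of AhR ligands, were scarce throughout. Ido1, which opens the kynurenine route, varied most, with 0.73, 0.74, 0.28 and 0.50 CPM in normoxia 1 to 4 and 4.05, 0.45, 1.77 and 0.17 CPM in hyperoxia 1 to 4. Its hyperoxia libraries lay on both sides of normoxia, and the edgeR adjusted p was 0.156. Afmid, the next enzyme of the route, rose from 1.42 ± 0.235 to 2.50 ± 0.237 CPM (SD, n = 4 each, log2FC 0.82, SE 0.198, adjusted p 0.00815). Of the 5 tested genes of this list it was the only one past the threshold, beside 18.5% higher among all tested genes.

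P450 enzymes draw electrons from the reductase POR and from cytochrome b5. Por was 78.2 ± 5.19 CPM in normoxia and 89.1 ± 5.75 CPM in hyperoxia (log2FC 0.19, edgeR adjusted p 0.0357), a call lost under 8 of 16 alternatives. It was lost without normoxia 2, 3 or 4 or hyperoxia 2, 3 or 4, each left out alone (adjusted p 0.0575 to 0.106). Cyb5a was 106 ± 6.98 and 93.8 ± 4.69 CPM (log2FC -0.18, adjusted p 0.0365), a call lost under 7 of 16 alternatives. It was lost without normoxia 1 or 3 or hyperoxia 1, 3 or 4, each left out alone (adjusted p 0.0687 to 0.101). Cyb5r3, which reduces cytochrome b5, rose from 345 ± 24.0 to 448 ± 17.0 CPM (log2FC 0.38, SE 0.0568, adjusted p 0.000486). SDs are over 4 libraries.

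Markers of other cells moved with oxygen beside these genes. Summed mural cell markers (8 genes) were 46.5 to 82.5 CPM in normoxia and 101 to 177 CPM in hyperoxia, and alveolar type 1 markers (6 genes) were 71.8 to 88.1 and 139.6 to 375 CPM. Among ECs, the 6 general capillary markers were 8644 to 9993 CPM in normoxia and 7169 to 8327 CPM in hyperoxia, and the 6 aerocyte markers were 1849 to 2214 and 3462 to 3900 CPM. These 4 sums and that of AT2 markers did not overlap between groups (exact permutation p 0.0286, 0.0629 after adjustment over 11 lists). Of the 6 general capillary markers, 4 were lower, 1 was higher and 1 was not past an adjusted p of 0.05. Among all tested genes 17.1% were lower and 18.5% were higher. The most abundant of the 6, Ptprb, went from a mean of 3691 CPM in normoxia to 2488 CPM in hyperoxia. Sums of fibroblast (116 to 226 and 173 to 410 CPM), venous (2026 to 2618 and 2251 to 3107 CPM), macrophage (166 to 336 and 218 to 499.8 CPM), lymphocyte (42.4 to 105 and 57.6 to 93.5 CPM) and airway markers (1.53 to 3.20 and 2.44 to 3.14 CPM) overlapped, and the airway markers Krt5 and Ccdc113 had no count in any library. The falls of Ahr, Tiparp and Cyp1a1 stood beside higher alveolar epithelial, mural and aerocyte sums and a lower general capillary sum. The part of this shift in these falls was not tested.

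Hyperoxia 3, with the smallest AT2 signal among hyperoxia libraries, stood at 79.0% of the normoxia mean for Ahr, 74.2% for Tiparp and 37.7% for Cyp1a1, against 75.1% to 78.6%, 66.3% to 76.1% and 6.27% to 42.6% in the other 3. Without it the log2FCs were -0.39, -0.52 and -1.99. The AT2 sum of hyperoxia 3, 849 CPM, was still above the normoxia maximum of 415 CPM. Among hyperoxia libraries it also had the lowest mural sum (101 CPM) and the highest general capillary sum (8327 CPM). The part of the cell mixture in these falls was not tested. The plot of levels against summed markers shows each library.

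**Figure D3:**
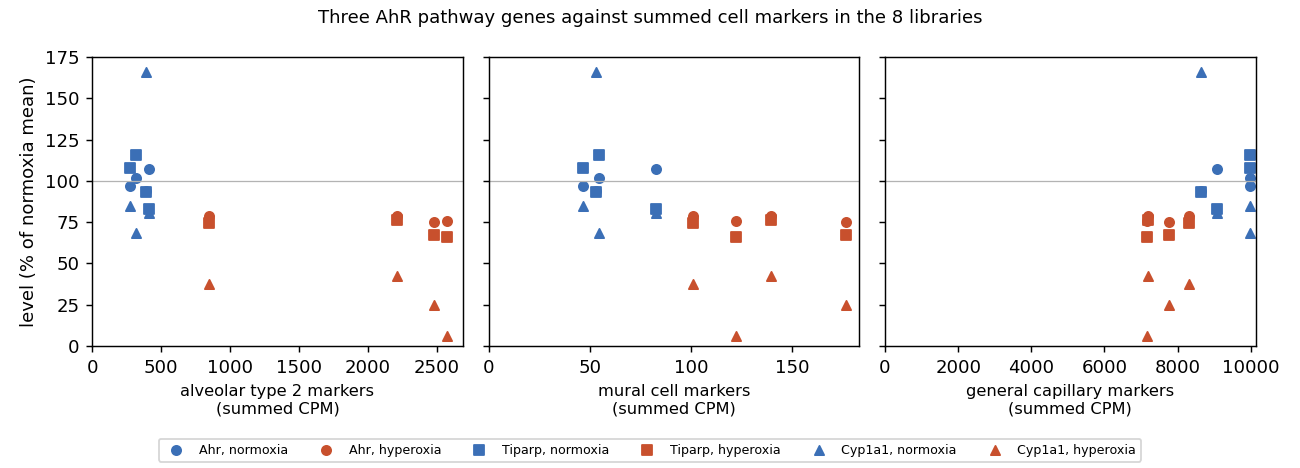
Levels of Ahr (circles), Tiparp (squares) and Cyp1a1 (triangles) as a percentage of their normoxia mean (y axis) against the summed CPM of AT2, mural or general capillary markers (x axis, linear) in the 4 normoxia (blue) and 4 hyperoxia (orange) libraries. Hyperoxia 3 held 849 CPM of AT2 markers, and the other hyperoxia libraries held 2211 CPM or more.

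The genes whose profile over the 8 libraries lay closest to each of the 5 were found by the root mean square (RMS) difference of centred log2 CPM among 12663 protein-coding genes. Nearest to Ahr were Epn2, an endocytic adaptor (RMS 0.0306), and Usp28, a deubiquitinase (RMS 0.0346). Nearest to Tiparp were Lgals4, a galectin (RMS 0.0529), and Ppp1r9a, a neurabin (RMS 0.0593). The scarce genes had no close match, since for Cyp1b1 (Tent5c), Ahrr (Ccdc69 and Haao) and Cyp1a1 (Igf2 and Rtbdn) the nearest lay at RMS 0.199, 0.216 and 0.46. The likeness is a description of 8 libraries that share their groups.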

How the data were processed

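RNA was sequenced as paired ends from 4 normoxia and 4 hyperoxia libraries, grouped by their titles. The authors deposited raw gene counts and FPKM values (count per gene length and library total) for 54532 genes. The submitters' processing notes name HISAT2 2.0.5, featureCounts 1.5.0-p3 and build mm10, and the strand setting and annotation are not given in the sources used here. For 4 of the 5 genes, all but Cyp1b1, coordinates and exon length equalled those of GENCODE M21 (GRCm38), which was used for exon overlaps.

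Counts were tested with edgeR 4.0.16 (R 4.3.3, TMM, filterByExpr, quasi-likelihood, group as the only term) on 15564 genes, and p-values were adjusted by Benjamini-Hochberg over these. The study used DESeq2, which is an alternative here (1.42.0), as are limma 3.58.1 with voom or log2 FPKM (pseudocounts 0.1 and 1), other normalizations, no filter, a replicate block and leaving out each library. The tests set group differences against the spread between libraries. The labels do not say how many litters or pups the libraries came from, so that spread need not be the spread between animals. On simulated counts for 15564 genes, the test called 72 of 100 genes changed by 1 on the log2 scale, 40 of 100 changed by 0.5 and 5 unchanged genes. The simulation changed a far smaller share of genes than was called in the data (17.1% lower and 18.5% higher). The rates need not hold for the data, since the adjustment depends on that share. Exact permutation tests of single measures were two-sided and covered 70 assignments. Profiles used log2(CPM + 0.05).

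The 5 genes, the pathway lists and the marker lists were chosen from general knowledge with earlier results of these data known. Named were the 5 genes, list genes past the threshold, the 2 most abundant of each list, and the 2 nearest profiles of each of the 5 genes among protein-coding genes with a mean of at least 1 CPM. A few genes that this rule names are not reported here, and they remain in the counts. Arnt, Cyp1a2 and the other targets with few counts were named after their values were seen.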

Additional observations from a re-analysis of the deposited data

Results flagged for a closer look

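Of 76 groups of 4 libraries examined (the 5 genes, the tested pathway genes and the summed markers), 2 held a library whose gap to its nearest neighbour took up more of the group's range than Dixon's 95% limit allows, against 3.8 expected by chance at about 1 group in 20. Cyp1a1 stood at 1.51 CPM in normoxia 3, from 27 counts, against 0.626 to 0.773 CPM in the other 3 normoxia libraries. Without normoxia 3 its log2 fold change was -1.46 with an edgeR adjusted p of 0.0398. The summed alveolar type 1 markers stood at 139.6 CPM in hyperoxia 3, while the remaining hyperoxia libraries held 335 to 375 CPM.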

How the results depend on the processing

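The directions of Ahr, Tiparp, Cyp1a1 and Cyp1b1 held under all 16 alternatives, and the first 3 stayed past an adjusted p of 0.05 in each (highest adjusted p 0.00273, 0.0108 and 0.04). In every fit with a filter Cyp1a1 was tested only through its normoxia libraries, so its calls there do not stand as support. The log2 fold change of Ahr ranged from -0.41 to -0.34 and that of Tiparp from -0.58 to -0.42. That of Cyp1a1 ranged from -2.09 to -0.28, the last on log2(FPKM + 1), a scale that shrinks scarce genes. On that scale 0 of the 5 genes, in place of 1, also passed the fold limit. Ahrr was kept by the filter in 5 of the leave-one-out fits, with log2 fold changes from -0.39 to -0.05. Cyp1b1 ranged from -0.77 to -0.30 when single libraries were left out, and the call changed without normoxia 4 (given above).

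Of the other pathway genes, 3 were lower. That count was 1 without the expression filter and 1 with the replicate number as a block, and 1 (without normoxia 1) to 4 (without normoxia 4) when single libraries were left out. With the block Hsp90ab1, Por and Cyb5a lost their calls (adjusted p 0.0565, 0.0889 and 0.0909). Over the 12 called genes, 24 of 192 alternative fits lost the call and none turned its direction. Deviations of same-numbered libraries of both groups were weakly correlated (0.119, 0.0361, -0.125 and -0.14), and hyperoxia 1 was the closest match of normoxia 1. The labels name no pairing, and so weak a check cannot exclude one. With the replicate block the log2 fold changes of Ahr, Tiparp and Cyp1a1 were -0.38, -0.49 and -1.82 (adjusted p 0.00273, 0.00401 and 0.0171). Depth limits Cyp1a1 and Ahrr, which had at most 27 and 18 counts in a library.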
